A study of Mus musculus with 12 samples.

Results

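This report sets the retina of mice with the CRX mutation E168d2 against the retina of mice without functional CRX, and asks at which genes a truncated CRX protein and the loss of CRX give different transcript levels. The probes described are those of an Illumina MouseWG-6 v2.0 bead array that gave signal above background (detection p-value below 0.05) on 1 or more of 6 arrays, 3 of E168d2neo/d2neo and 3 of Crx-/-, out of the 12 arrays of the series. This rule took 22705 of 45281 probes, and 18851 of them carried a gene symbol, for 12154 genes. At the limit of the rule, the largest lowest detection p-value of a probe taken was 0.0491, and the smallest of a probe not taken was 0.0502. WT arrays are used to say from which side a difference arose, and the arrays of another mutant, R90Wneo/Wneo, enter the estimate of the spread and choose 1 set of probes described last.

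All mice were P10 and had been backcrossed to C57BL6/J for at least 5 generations. E168d2neo/d2neo mice are homozygous for a knock-in allele, made in 129Sv/J embryonic stem cells, in which a deletion of 2 bases shifts the reading frame and truncates CRX behind its DNA-binding homeodomain. They come from the subline that still holds the neo selection cassette in an intron of Crx, which lowers the amount of mutant protein. Crx-/- mice lack functional CRX and came from another laboratory's line. R90Wneo/Wneo mice are homozygous for an amino acid substitution in the homeodomain, in the subline with neo, and WT mice carry 2 normal alleles. Each array was given the RNA of 4 retinas, taken from a male and a female and combined, so n counts pools, and spread within a genotype is spread between pools.

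CRX, a transcription factor with a homeodomain, is made in rods and cones and binds the promoters and enhancers of most genes of phototransduction, the outer segment and the photoreceptor synapse, together with NRL and NR2E3 in rods. Photoreceptors without CRX are born but do not build outer segments. Frameshift mutations behind the homeodomain leave a protein that can still bind DNA but lacks much of the part that activates transcription, and in people they cause dominant retinal disease.

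Signals were quantile-normalized, raised to a floor of 16 where they lay below it (4 on the log2 scale) and given as log2. Arrays had mean signals from 176 to 394, with E168d2neo/d2neo replicate 1 low at 183. Photoreceptor transcripts marked the samples as retina, since the log2 signal of Nrl lay between 12.63 and 13.51 and that of Crx between 12.83 and 14.05 on the 6 arrays. Transcripts of lens genes separated the arrays within each genotype. The median log2 signal of 14 lens genes was 13.78 on E168d2neo/d2neo replicate 1, 4.11 on replicate 2 and 6.10 on replicate 3, and it was 11.84, 7.25 and 9.08 on Crx-/- replicates 1, 2 and 3. On WT replicates 1, 2 and 3 it was 6.86, 5.68 and 7.21, with 11, 10 and 11 of the 14 genes detected. The summed linear signal of these genes ran from 1005 to 197313 in E168d2neo/d2neo and from 2744 to 71806 in Crx-/-, and all 14 were detected on E168d2neo/d2neo replicate 1 and on Crx-/- replicates 1 and 3. None of the 14 was called between the genotypes, with 14 of 14 differences below 0 and a median of -0.98. On the array labelled Crx-/- replicate 3, Xist, transcribed from the inactive X chromosome of females, lay at the floor and was undetected, whereas the Y-linked Ddx3y stood at 11.28. Xist lay between 8.05 and 9.69 on the other 5 arrays, so that array goes against the description of its pool as 1 male and 1 female. The part of lens RNA and of the sex of the mice in the results was not tested, and counts without these arrays are given below.

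Crx itself was measured in both mutants. Its log2 signal was 13.66, 14.05 and 14 on the E168d2neo/d2neo arrays, 12.99, 12.83 and 13.04 on the Crx-/- arrays, and 13.65, 13.44 and 13.44 on the WT arrays. The 2 mutants did not overlap, and Crx was 0.95 ± 0.15 (SE of limma, n = 3 against 3) higher in E168d2neo/d2neo with an adjusted p = 0.019, which did not reach the change of 2-fold asked of a call. A transcript that the probe still binds is thus present in Crx-/-, and the probe does not check the genotype labels.

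A probe was called at a Benjamini-Hochberg adjusted p of at most 0.05 and a difference of at least 2-fold in limma, a linear model fitted to all probes at once. E168d2neo/d2neo was called lower than Crx-/- at 77 probes and higher at 52, which are 0.317% and 0.214% of the 24311 probes tested. The 2 comparisons with WT in the same fit share their WT arrays, and they called 545 probes (2.24%) below and 376 (1.55%) above WT for E168d2neo/d2neo. For Crx-/- these were 570 (2.34%) and 376 (1.55%). In either direction these were 3.79% and 3.89%. Over all 22705 probes the median difference was near 0 (-0.004), and 50.5% of the differences were below 0. The 77 lower probes stood for 54 genes and had a median log2 difference of -1.54. The 52 higher probes stood for 38 genes and had a median of 1.58. The arrays of the 2 mutants overlapped at 0 of these 129 probes. The 2-fold change and adjusted p asked of a call make this likely, so it adds no support to the calls.

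**Figure D1:**
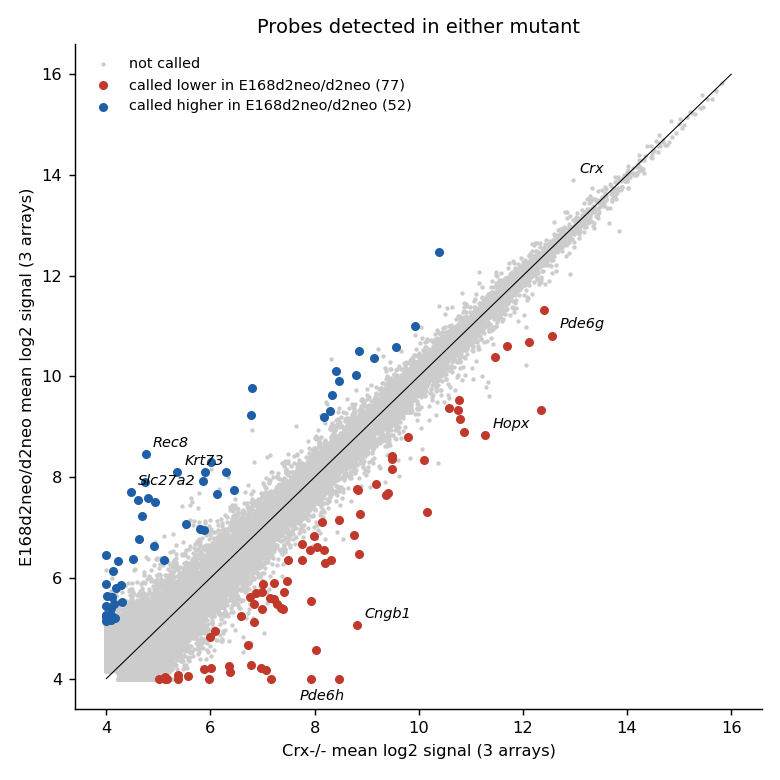
Mean log2 signal of each probe in Crx-/- (x axis) and E168d2neo/d2neo (y axis), 3 arrays each, with the 77 probes called lower in red and the 52 called higher in blue. Most called probes lie in the middle and lower range of signals, and Pde6h lies at the floor of 4 in E168d2neo/d2neo.

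The calls rested on a spread estimated over all 12 arrays. The 6 arrays fitted alone called 6 probes lower, among them those of Pde6h, Cngb1, Nipal1, Atp8a2 and Pkd2, and 0 higher, although 1247 and 1074 probes had an unadjusted p under 0.05, while SAM, the method of the study, called 18 lower (0.074%) and 10 higher (0.0411%). Without E168d2neo/d2neo replicate 1 the higher calls numbered 147, and they were 32 without replicate 2 and 21 without replicate 3, where the lower calls numbered 35. Without Crx-/- replicate 2 the calls were 38 lower and 18 higher, and without Crx-/- replicate 1 the higher calls numbered 26. Without Crx-/- replicate 3, the array that lacked Xist, 65 probes were lower and 49 higher, of which 50 and 29 were among the 77 and 52 of the full set. With the 2 most lens-rich arrays left out, E168d2neo/d2neo replicate 1 and Crx-/- replicate 1, 87 probes were lower and 93 higher, and 54 and 27 of these were in the full set.

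WT showed from which side the differences arose. Among the 77 lower probes, 25 were called below WT in both mutants, and 13 were called below WT in E168d2neo/d2neo alone. A further 24 were called above WT in Crx-/- alone, and 15 were called against WT in neither. Among the 52 higher probes, 19 were called below WT in Crx-/- alone and 13 above WT in E168d2neo/d2neo alone. Of the other higher probes, 3 were above WT in both mutants, 1 was below WT in both, 2 were called in opposite directions and 14 in neither. The mean of WT lay above both mutants at 36 lower probes, between them at 31 and below both at 10. For the higher probes these numbers were 9, 32 and 11. Positions of WT were not counted over all probes, and choosing probes by a gap between the mutants favors a WT mean between them. With arrays scaled to 1 mean in place of quantiles, WT lay between the mutants at 50 of 79 higher probes.

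The 20 genes called below WT in both mutants and lowest in E168d2neo/d2neo held members of the rod and cone cascades that turn light into an electrical signal. Also among the 20 were Mpp4, Ano2, Fam161a, Llgl2, Plpp2, Serinc4 and Mdm1, and 1 further probe had no gene symbol. Pde6h, the inhibitory subunit of the cone phosphodiesterase, lay at the floor and undetected on all 3 E168d2neo/d2neo arrays. It was at 7.75, 8.04 and 7.98 in Crx-/- and 11.15, 12.10 and 11.70 in WT. Pde6h was therefore at least 9.04-fold lower in E168d2neo/d2neo (adjusted p = 0.000336), a bound that sets the Crx-/- mean against the lowest signal of a detected probe on each E168d2neo/d2neo array and that the p-value does not test.

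Cngb1, the beta subunit of the cyclic nucleotide-gated channel of rods, gave the smallest p-value of all probes. The brighter of its 2 probes stood at 9.39, 9.41 and 9.22 in E168d2neo/d2neo, at 12.21, 12.32 and 12.51 in Crx-/-, and at 13.31, 13.46 and 13.50 in WT. The difference was -3.01 ± 0.14, or 8.04-fold, with an adjusted p = 5.6e-06. Crx-/- lay closer to WT than to E168d2neo/d2neo, and E168d2neo/d2neo lay far below both. The dimmer probe gave -3.75 ± 0.37 (adjusted p = 0.00137). Cnga1, the alpha subunit of the same channel, was lower by a smaller amount, at -1.54 ± 0.30 (adjusted p = 0.0475), with arrays at 5.52 to 6.57 against 7.10 to 8.04. Its call stood in 8 of 25 alternative settings.

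The phosphodiesterase subunits, which cut cyclic GMP when light arrives, were not all called. Pde6g, the inhibitory subunit of rods, was at 10.93, 10.66 and 10.84 in E168d2neo/d2neo, 12.33, 12.55 and 12.80 in Crx-/-, and 14.63, 14.83 and 14.76 in WT. This step from WT to Crx-/- to E168d2neo/d2neo gave a difference between mutants of -1.75 ± 0.17 (adjusted p = 0.00137). Pde6c, the catalytic subunit of cones, was lower at both of its probes, with -1.33 ± 0.22 at the brighter one (adjusted p = 0.0224), a call lost when any of 5 arrays, all of E168d2neo/d2neo or Crx-/-, was left out (adjusted p up to 0.0868). The catalytic subunits of rods did not pass the test, Pde6a with -1.12 ± 0.56 (adjusted p = 0.53) and Pde6b with -0.60 ± 0.15 (adjusted p = 0.12). The Pde6a arrays of the 2 mutants did not overlap, at 6.53, 5.56 and 6.74 against 7.11, 7.26 and 7.82. The SD of its probe was 1.39 in R90Wneo/Wneo, which enters the spread of the fit, against 0.63 in E168d2neo/d2neo and 0.38 in Crx-/-. Aipl1, a chaperone that rods and cones need to fold the phosphodiesterase, was lower at both probes, with arrays at 9.27 to 9.41 against 10.41 to 11.10 at the brighter one and a difference of -1.42 ± 0.19 (adjusted p = 0.0083).

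**Figure D2:**
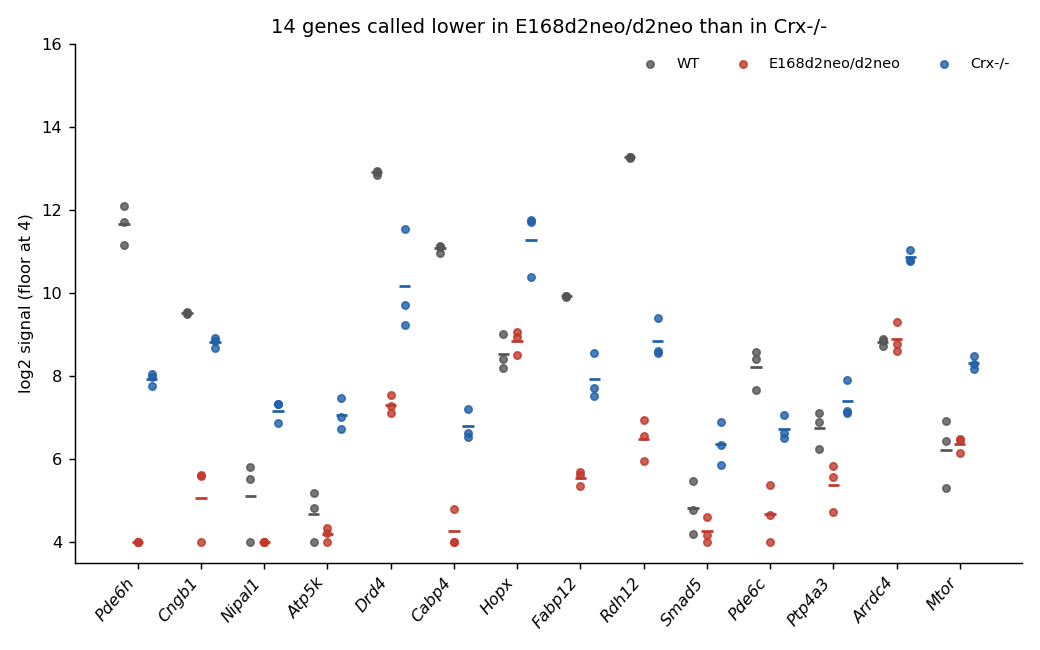
Log2 signal on each array (points) and the mean of 3 arrays (bars) in WT, E168d2neo/d2neo and Crx-/- for 14 of the 15 genes with the largest difference among those called lower in E168d2neo/d2neo. WT lies above both mutants for Pde6h, Cabp4 and Rdh12, and below Crx-/- for Hopx, Arrdc4, Nipal1 and Atp5k.

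Genes of other photoreceptor functions were lower in E168d2neo/d2neo too. Cabp4, a calcium-binding protein of the photoreceptor synapse, was undetected on all 3 E168d2neo/d2neo arrays and at 6.52, 6.63 and 7.19 in Crx-/-, against about 11 in WT (10.97, 11.12 and 11.14), at least 4.09-fold lower (adjusted p = 0.0081), and lost its call without E168d2neo/d2neo replicate 3 (adjusted p = 0.0512). Rdh12, a retinol dehydrogenase of the inner segment, stood at 6.93, 5.95 and 6.54 against 8.54, 8.61 and 9.40 in Crx-/-, with WT at 13.25 to 13.29. Its difference was -2.38 ± 0.32 (adjusted p = 0.0083), so the mutants shared a deep loss and differed by 5.20-fold within it. Fabp12, a fatty acid-binding protein, gave -2.38 ± 0.24 (adjusted p = 0.00137). Prph2, which shapes the rims of outer segment discs, gave -1.08 ± 0.20 (adjusted p = 0.0422), a call that stood in 5 of 25 alternative settings. Tulp1, which carries proteins to the outer segment, was lower at all 3 of its probes, with -1.43 ± 0.21 at the brightest (adjusted p = 0.012). Drd4, the dopamine receptor of photoreceptors, spread widely in Crx-/-, at 9.71, 9.22 and 11.55, where the highest value was that of the array without Xist. Its E168d2neo/d2neo arrays lay at 7.11 to 7.53 and its difference was -2.85 ± 0.48 (adjusted p = 0.0224). The call of Drd4 was lost without E168d2neo/d2neo replicate 2 or 3 or Crx-/- replicate 1, at log2 differences between -3.32 and -2.16 over all arrays left out and with adjusted p-values up to 0.105.

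In a smaller group E168d2neo/d2neo was called below WT and Crx-/- was not. At some of these genes only the 2-fold cut kept Crx-/- from a call. Crx-/- minus WT was -0.83 for Atp8a2 (adjusted p = 0.011) and -0.94 for Plch2 (adjusted p = 0.010). Grk1 (-0.42, adjusted p = 0.36) and Ramp3 (-0.80, adjusted p = 0.10) did not pass the test there. Atp8a2, which moves phospholipids across membranes, stood at 5.50, 5.43 and 5.50 in E168d2neo/d2neo, 7.33, 7.11 and 7.40 in Crx-/- and 8.02, 8.27 and 8.02 in WT. Its difference of -1.80 ± 0.16 (adjusted p = 0.00108) stayed called in 25 of 25 alternative settings counted, as did those of the brighter Cngb1 probe, Nipal1 and Pde6h. Grk1, a kinase that turns off the activated visual pigment, was undetected in E168d2neo/d2neo and at 5.79, 5.85 and 6.41 in Crx-/-, at least 2.41-fold lower (adjusted p = 0.0083). Ramp3, which modifies calcitonin-family receptors, stood at 7.75, 6.79 and 7.26 against 8.44, 8.87 and 9.31, a difference of -1.61 ± 0.27 (adjusted p = 0.022). That call was lost without E168d2neo/d2neo replicate 2 or 3 or Crx-/- replicate 2 or 3, with adjusted p-values up to 0.0932. Others here were Ptp4a3, Slc16a6, Plch2, Sfxn2, Gnmt, Mok and Spring1, with differences from -2.01 to -1.23, and that of Sfxn2 was called in 7 of 25 alternative settings. The call of Ptp4a3 at the dimmer of its probes, with the difference of -2.01, was lost without E168d2neo/d2neo replicate 3 or Crx-/- replicate 1 or 2 (adjusted p up to 0.0877).

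Promoter sequences of these genes are shown because CRX binds TAATCC and its reverse complement GGATTA, and these 6 letters, read on both strands, can be found in them. The sequences are from RefSeq (GRCm38.p6), from 250 bases before to 50 after an annotated start, and capitals mark TAATCC or GGATTA. For Cngb1 and Slc27a2 this start is the outer end of the gene. For Aipl1 (gene at chr11:72028717-72042460) and Pde6h (gene at chr6:136952218-136963485) the window lies inside the gene. Cngb1 (chr8:95306536-95306835, minus strand), with the smallest p-value, holds TAATCC starting 58 and 25 bases before its start, and Aipl1 (chr11:72037460-72037759, minus strand), a gene lower at both probes, holds GGATTA 53 bases before and 11 bases after it. Pde6h (chr6:136954273-136954572, plus strand), undetected in E168d2neo/d2neo, and Slc27a2 (chr2:126552774-126553073, plus strand), higher in E168d2neo/d2neo, hold neither in this window.
Cngb1: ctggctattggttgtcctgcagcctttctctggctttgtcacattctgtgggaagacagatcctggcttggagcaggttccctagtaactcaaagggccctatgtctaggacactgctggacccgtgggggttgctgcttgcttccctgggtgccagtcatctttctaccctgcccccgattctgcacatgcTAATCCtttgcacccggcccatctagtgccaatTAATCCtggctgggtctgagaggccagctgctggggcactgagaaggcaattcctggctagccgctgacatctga
Aipl1: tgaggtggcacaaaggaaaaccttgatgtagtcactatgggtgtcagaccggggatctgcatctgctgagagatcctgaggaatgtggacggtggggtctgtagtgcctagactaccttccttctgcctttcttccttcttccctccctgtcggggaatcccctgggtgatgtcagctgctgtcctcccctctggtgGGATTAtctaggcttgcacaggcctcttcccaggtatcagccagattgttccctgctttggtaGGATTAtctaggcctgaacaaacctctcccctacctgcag
Pde6h: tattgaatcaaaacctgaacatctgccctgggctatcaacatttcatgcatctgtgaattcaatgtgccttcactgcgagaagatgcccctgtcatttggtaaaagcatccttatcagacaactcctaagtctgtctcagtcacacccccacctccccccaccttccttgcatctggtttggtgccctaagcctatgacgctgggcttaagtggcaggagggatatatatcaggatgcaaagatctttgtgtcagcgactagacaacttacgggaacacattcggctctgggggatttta
Slc27a2: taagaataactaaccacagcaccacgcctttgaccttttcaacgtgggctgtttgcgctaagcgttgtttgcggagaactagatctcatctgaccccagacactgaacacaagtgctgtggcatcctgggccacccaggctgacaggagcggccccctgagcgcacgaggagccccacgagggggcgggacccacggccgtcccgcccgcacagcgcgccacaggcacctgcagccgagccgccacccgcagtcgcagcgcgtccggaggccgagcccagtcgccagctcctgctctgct

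Of the 54 genes called lower, 44 matched a promoter in the RefSeq table, and 10 of these held TAATCC or GGATTA (22.7%), against 2199 of 27025 genes in the table (8.14%). By side, the letters stood in 6 of 14 promoters of genes called below WT in both mutants, in 4 of 9 of genes called below WT in E168d2neo/d2neo alone, in 1 of 14 of genes called above WT in Crx-/- alone, and in 0 of 10 of genes called in neither. A gene with probes on more than 1 side is counted on each. Of the 38 genes called higher, 1 of 29 with a promoter held them (3.45%). These are counts of letters in a short window and not of bound sites. Some windows, as those of Aipl1, Pde6h, Mpp4 and Plch2, lie inside the gene.

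A second kind of lower gene was called above WT in Crx-/- and not in E168d2neo/d2neo. Txnip and Arrdc4 belong to this group and encode 2 alpha-arrestins, proteins that limit glucose uptake. Arrdc4 was at 9.30, 8.60 and 8.78 in E168d2neo/d2neo, 10.79, 11.02 and 10.77 in Crx-/- and 8.83, 8.89 and 8.73 in WT, a difference of -1.97 ± 0.20 (adjusted p = 0.0015). Txnip stood at 11.64, 11.14 and 11.15 against 12.56, 12.58 and 12.05 at its brighter probe, with WT at 10.13 to 10.52, and gave -1.09 ± 0.20 (adjusted p = 0.038) there and -1.24 ± 0.19 (adjusted p = 0.017) at the other. Arrdc4 of E168d2neo/d2neo differed from WT by 0.08. Txnip lay between WT and Crx-/- instead, with E168d2neo/d2neo 0.95 above WT at the brighter probe (adjusted p = 0.0176) and 0.93 at the other (adjusted p = 0.016), both under 2-fold. The calls of Txnip between the mutants stood in 11 of 25 alternative settings at the brighter probe and in 17 at the other.

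Hopx, whose product has a homeodomain but makes no contact with DNA, was at 8.5, 8.94 and 9.05 in E168d2neo/d2neo, 10.38, 11.70 and 11.77 in Crx-/- and 9.01, 8.19 and 8.42 in WT (-2.45 ± 0.38, adjusted p = 0.0153). Its call was lost without E168d2neo/d2neo replicate 2 or 3 or Crx-/- replicate 2 or 3, with adjusted p-values up to 0.0818. Pkd2, the ion channel polycystin-2, was at 6.68, 6.98 and 6.91 against 8.80, 8.78 and 8.67, with WT at 6.11 to 7.16 (-1.89 ± 0.25, adjusted p = 0.0081). Nipal1, a magnesium transporter, lay at the floor in E168d2neo/d2neo and at 7.31, 6.86 and 7.32 in Crx-/-, at least 5.33-fold lower (adjusted p = 0.00345), with WT at 4, 5.52 and 5.81. Atp5k, a subunit of the ATP synthase, was undetected in E168d2neo/d2neo and at 7.0, 7.46 and 6.71 in Crx-/-, at least 4.96-fold lower (adjusted p = 0.0083). The WT arrays were also near the floor, at 4, 4.82 and 5.19, and 1 of 3 detected it. The call of Atp5k was lost without E168d2neo/d2neo replicate 3 or Crx-/- replicate 2 (adjusted p up to 0.0535).

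At several of these genes another probe did not show the difference. Mtor, a kinase of growth control, was called at 1 probe (6.14, 6.45 and 6.47 against 8.29, 8.49 and 8.17), while its brighter probe had means of 9.22 and 9.23 and a difference of -0.01. The called probe lost its call when any of 5 arrays was left out, replicates 2 and 3 of E168d2neo/d2neo and all 3 of Crx-/- (adjusted p up to 0.0938). Smad5, a mediator of BMP signals, was called at a dim probe (-2.11 ± 0.37, adjusted p = 0.0301) and had 0.36 at its brighter one (adjusted p = 0.518), and the call was lost when any of 8 arrays was left out (adjusted p up to 0.131). Of the 54 genes called lower, 36 had more than 1 probe tested. Over 1 probe was called for 8 of these (Aipl1, Cabp4, Cngb1, Fam120b, Pde6c, Ptp4a3, Tulp1 and Txnip), and the brightest probe was not called for 12. Of the 38 genes called higher, 21 had more than 1 probe, 3 had over 1 called (Krt73, Serping1 and Slc27a2), and the brightest was not called for 10.

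The genes higher in E168d2neo/d2neo also came from both sides of WT. Slc27a2, an enzyme that activates very long fatty acids, was at the floor on all WT arrays. One probe was at 7.74, 8.15 and 7.81 in E168d2neo/d2neo against 4.56, 4.53 and 5.13 in Crx-/-, and the other was at 6.94, 8.22 and 7.97 against 5.10, 4 and 4.31. The differences were 3.16 ± 0.37 (adjusted p = 0.0035) and 3.24 ± 0.33 (adjusted p = 0.00155), and the groups were far apart at both. Krt73, a keratin, was likewise near the floor in WT (4.57, 4 and 4 at the brighter probe) and called above it in both mutants. Its E168d2neo/d2neo arrays gave 12.36, 12.37 and 12.68 and its Crx-/- arrays 9.85, 10.36 and 10.95, a difference of 2.08 ± 0.26 (adjusted p = 0.0064).

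Serping1, the inhibitor of the first complement component, was called above WT in both mutants at both probes. The brighter probe gave 10.76, 10.17 and 10.61 in E168d2neo/d2neo, 8.58, 9.05 and 8.95 in Crx-/- and 7.75, 7.14 and 6.96 in WT, a difference of 1.65 ± 0.25 (adjusted p = 0.013). Of 6 complement genes measured it was the only one called, and the median of the 6 differences was -0.07. Igfbp5, which binds insulin-like growth factors, was called at 1 of 3 probes, at 1.07 ± 0.16 there (adjusted p = 0.0148). The other 2 gave 1.02 and 0.70. Tmod3, which caps actin filaments, lay at the floor in WT and Crx-/- and at 5.53, 6.18 and 5.93 in E168d2neo/d2neo, which makes it at least 2.22-fold higher there (adjusted p = 0.0081). Pdzrn4, a PDZ and RING finger protein, stood at 7.21, 7.57 and 8.20 against 5.92, 6.12 and 6.31, with WT at 5.70 to 5.96 (1.54 ± 0.23, adjusted p = 0.0122).

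**Figure D3:**
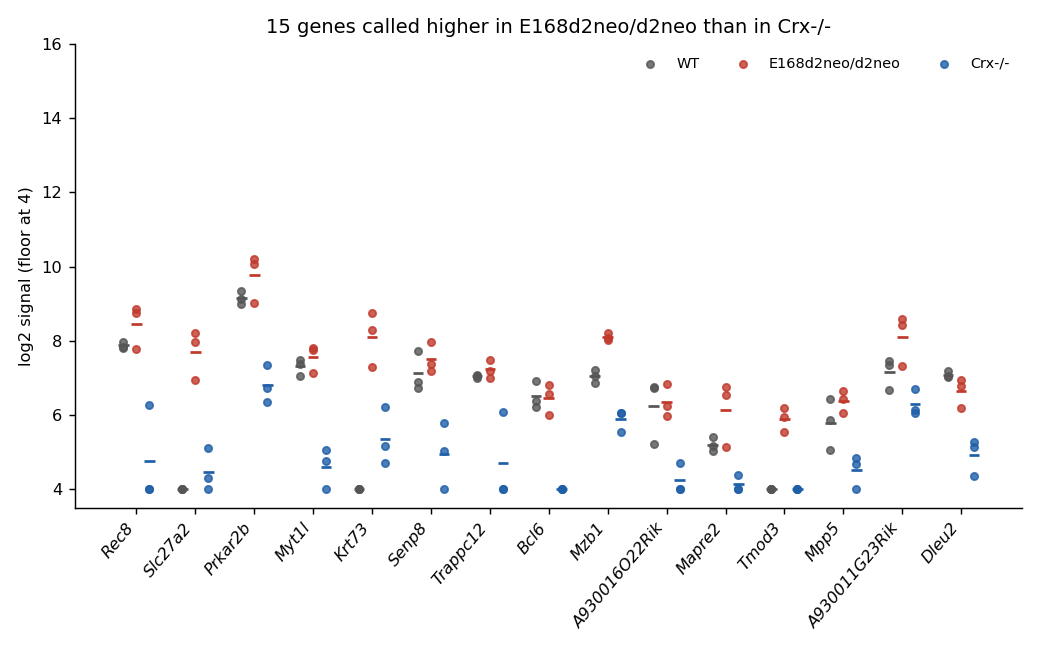
Log2 signal on each array (points) and the mean of 3 arrays (bars) in WT, E168d2neo/d2neo and Crx-/- for the 15 genes with the largest difference among those called higher in E168d2neo/d2neo. WT lies at the floor for Slc27a2, Krt73 and Tmod3, and with E168d2neo/d2neo above Crx-/- for Rec8, Prkar2b, Myt1l and Bcl6.

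For a second group WT and E168d2neo/d2neo lay together and Crx-/- was low. Rec8, a cohesin subunit of meiosis, was at 8.84, 7.77 and 8.75 in E168d2neo/d2neo and 7.97, 7.81 and 7.84 in WT, and at 6.28, 4 and 4 in Crx-/-, where 1 of 3 arrays detected it. The difference was 3.70 ± 0.52 (adjusted p = 0.0102), and the call was lost without E168d2neo/d2neo replicate 3 or Crx-/- replicate 2 (adjusted p up to 0.0647). Prkar2b, a regulatory subunit of protein kinase A, stood at 9.01, 10.22 and 10.08 against 7.35, 6.34 and 6.72 in Crx-/-, with WT at 8.98 to 9.35 (2.97 ± 0.32, adjusted p = 0.00187). Bcl6, a transcriptional repressor, lay at the floor on all 3 Crx-/- arrays and at 6.82, 6.0 and 6.57 in E168d2neo/d2neo, which makes it at least 3.31-fold higher there (adjusted p = 0.0077). Myt1l, a neuronal zinc finger protein, was called at 1 of 4 probes (7.79, 7.13 and 7.74 against 4.76, 4 and 5.04), whereas the other 3 gave 0.51, -0.12 and -0.34 and were not called. The brightest over all 12 arrays was the one with -0.12 (adjusted p = 0.902).

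Of the other genes among the 15 with the largest positive difference, Senp8 and Trappc12 were called below WT in Crx-/- alone, as were Mpp5, Dleu2 and A930016O22Rik, and Mapre2 and A930011G23Rik were called against WT in neither mutant. Calls of these 7 genes were lost when 4 to 11 of the 12 arrays were left out in turn. The brain-derived growth factor gene Bdnf was higher in E168d2neo/d2neo at 8.10, 7.41 and 7.73 against 6.54, 6.19 and 6.65 (1.29 ± 0.21, adjusted p = 0.019), with WT at 6.69 to 6.95. Ankrd33, whose product lowers CRX activity in mouse photoreceptors, was the gene called below WT in both mutants and higher in E168d2neo/d2neo. It was at 9.37, 10.08 and 10.30 in E168d2neo/d2neo, 8.14, 8.42 and 8.83 in Crx-/- and 11.95, 12.36 and 12.13 in WT (1.45 ± 0.28, adjusted p = 0.0475). The call between the mutants stood in 8 of 25 alternative settings.

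Other photoreceptor genes far below WT did not differ between the mutants beyond the test. Gnat1, the rod transducin, stood at 11.89, 11.12 and 11.38 in E168d2neo/d2neo, near the 11.09, 11.04 and 11.35 of Crx-/-, with 15.64 to 15.83 in WT, and the difference was 0.30 ± 0.66 (adjusted p = 0.93). Rcvrn, the calcium sensor recoverin, gave -0.57 ± 0.54 (adjusted p = 0.78) and Arr3, the cone arrestin, -1.06 ± 0.44 (adjusted p = 0.42). Arr3 was detected on 2 of 3 E168d2neo/d2neo arrays, with signals of 4, 4.96 and 4.60. By qRT-PCR the study found no Arr3 in E168d2neo homozygotes and a residual amount in Crx-/-. Cpm, which the study lists with Arr3 as lower in E168d2neo/d2neo than in Crx-/-, gave -0.48 ± 0.18 (adjusted p = 0.35). Of the 6 genes the study lists so, 4 were called lower here, Drd4, Ramp3 and Pde6c among them. All 6 differences were below 0. The cone transducin Gnat2 gave -0.04 ± 0.17 (adjusted p = 0.98). Opn1mw, the green cone opsin, was detected on all 3 E168d2neo/d2neo arrays at 6.60, 5.38 and 6.45 and on 0 of 3 Crx-/- arrays, with WT at 12.94 to 13.24. Opn1mw was at least 2.66-fold higher in E168d2neo/d2neo and was not called (adjusted p = 0.51), nor was it called in any of 25 alternative settings. The SD of this probe was 2.85 in R90Wneo/Wneo, which enters the spread of the fit, and 0.66 in E168d2neo/d2neo. For Gnat1, Rcvrn and Arr3 the SD was 1.81, 1.32 and 0.94 in R90Wneo/Wneo, against 0.39, 0.60 and 0.49 in E168d2neo/d2neo. The part of the R90Wneo/Wneo arrays in these results was not tested.

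Of the photoreceptor gene lists, those of rod phototransduction and of the synapse had medians well below 0, and the others had medians nearer to 0. Over all 12154 genes, with the brightest probe of each, 42 were called lower (0.346%) and 28 higher (0.23%), and the median difference was 0.01. Of 9 rod phototransduction genes, 4 were lower and 0 higher, with Cngb1, Pde6g and Cnga1 among the 4 and a median of -1.12. Of 7 cone phototransduction genes 2 were lower (Pde6h and Pde6c) and 0 higher, with a median of -0.04. The 16 photoreceptor synapse genes had 1 lower (Cabp4), a median of -0.43 and 14 differences below 0, and among them Cacna2d4, a calcium channel subunit, gave -1.34 ± 0.30 (adjusted p = 0.077). For 11 genes of light response shut-off 1 was lower (Grk1, median -0.23), for 10 of outer segment structure 2 (Tulp1 and Prph2, median -0.03), for 5 of the retinoid cycle 1 (Rdh12, median -0.08), and for 19 of cilium and trafficking 1 (Aipl1, median -0.02). For 7 photoreceptor channel and transporter genes 0 were called and the median was -0.05. In bulk retina, fewer photoreceptors and less RNA per photoreceptor cannot be told apart.

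None of 13 photoreceptor transcription factors was called, and their median was -0.10. Nrl stood at 12.63, 13.51 and 13.37 against 13.15, 12.86 and 13.02 (0.16 ± 0.21, adjusted p = 0.86). Otx2, the homeodomain relative of Crx, stood at 11.99, 12.75 and 12.43 against 12.85, 12.85 and 12.75 (-0.43 ± 0.19, adjusted p = 0.47). Pias3, a SUMO ligase that acts with CRX and NRL in rods, was at 9.70, 9.91 and 9.61 against 10.76, 10.85 and 10.50, apart on all arrays but under 2-fold (-0.96 ± 0.15, adjusted p = 0.015).

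**Figure D4:**
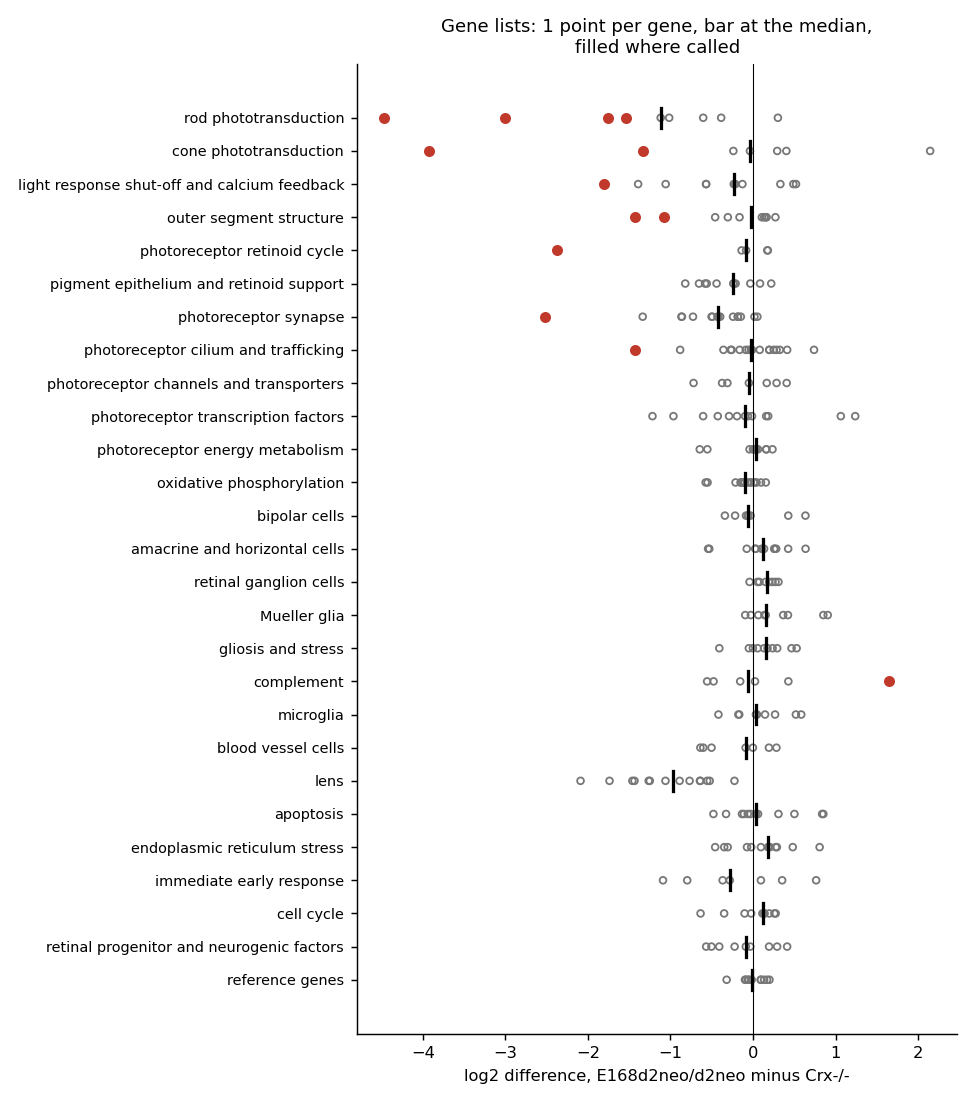
Log2 difference of E168d2neo/d2neo minus Crx-/- for each measured gene of the lists (points, filled red where called) and the median of each list (black bars). The rod phototransduction list has the lowest median of the photoreceptor lists at -1.12, and lens genes spread to the left with a median of -0.98 and 0 calls.

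Lists of other retinal cells held 0 calls, with medians of -0.06 for 8 bipolar cell genes, 0.12 for 12 amacrine and horizontal cell genes, 0.17 for 8 ganglion cell genes, 0.15 for 9 Mueller glia genes and 0.04 for 10 microglia genes. The brightest of the Mueller glia genes was Slc1a3, a glutamate transporter, with 0.15 ± 0.17. Sox9, a transcription factor of these cells, was at 12.41, 11.87 and 11.93 in E168d2neo/d2neo against 11.17, 11.12 and 11.20 in Crx-/- and differed by 0.91 ± 0.16 (adjusted p = 0.029), under 2-fold. Lists of gliosis, apoptosis, endoplasmic reticulum stress, immediate early genes, cell cycle, energy metabolism and oxidative phosphorylation likewise held 0 calls, with medians from -0.28 to 0.18. Among 11 reference genes 0 were called and the median was -0.02.

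Probes that respond to CRX can be chosen on other arrays, those of R90Wneo/Wneo against WT. These calls came from the same fit, so both sets of calls share 1 estimate of the spread of each probe. Of 158 probes called lower there (0.65% of those tested), 132 were detected in E168d2neo/d2neo or Crx-/-. Of the 132, 13 were called lower in E168d2neo/d2neo than in Crx-/- (9.85%, against 0.339% of all 22705 probes). The Ankrd33 probe, 1 of the 132, was called higher (0.758%, against 0.229%). The median difference of the 132 was -0.20, with quartiles of -0.62 and 0.28, against -0.23 and 0.22 for all probes. Differences below 0 made up 62.1% of them and 50.5% of all probes. Of 80 probes called higher in R90Wneo/Wneo, 79 were detected, with a median of -0.10. Of the 79, 3 were called lower (3.80%, 2 of Txnip and 1 without a gene) and 1 higher (1.27%).

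**Figure D5:**
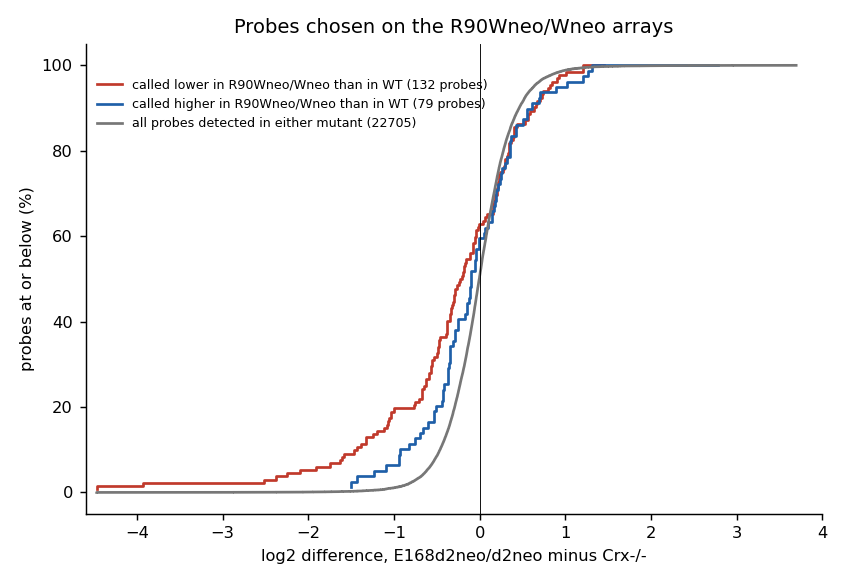
Cumulative share of probes (y axis, percent) by log2 difference of E168d2neo/d2neo minus Crx-/- (x axis), for probes called lower (red) or higher (blue) in R90Wneo/Wneo than in WT and for all 22705 probes (grey). Below 0 the red line runs left of the grey one, and its median is -0.20.

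Genes close to Crx on chromosome 7 were counted apart, since the 2 alleles were made by separate targeting. Within 5 Mb of the start of Crx (GRCm38), 91 genes were measured and 1 was called (1.10%, against 0.576% of all genes in either direction). This was A930016O22Rik, 3.55 Mb away, with 6.82, 5.96 and 6.24 in E168d2neo/d2neo against 4, 4 and 4.69 in Crx-/- (2.11 ± 0.41, adjusted p = 0.0475), a call lost when any of 11 of the 12 arrays was left out. Crxos, transcribed opposite to Crx, was at 5.14, 6.12 and 5.70 against 5.18, 5.21 and 4.48, and was below WT in both mutants (0.70 ± 0.26, adjusted p = 0.35).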

How the data were processed

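Illumina MouseWG-6 v2.0 arrays were read for 12 samples, 3 per genotype. The deposited table holds background-subtracted signal intensity per probe, not normalized between arrays, and a detection p-value against each array's negative controls, both made by the authors with GenomeStudio (version not given in the sources used here). A second deposited table equals these intensities scaled to 1 mean per array and was not used. Signals were quantile-normalized over 12 arrays, floored at 16 and taken as log2. The 24311 probes detected on at least 1 of 12 arrays were fitted with limma 3.58.1 (R 4.3.3, lmFit and eBayes, 4 genotypes), with Benjamini-Hochberg adjustment over all of them. Signs are E168d2neo/d2neo minus Crx-/-. The number of arrays limits the precision, and an exact permutation test of 3 against 3 cannot go below p = 0.1. Symbols came from the platform annotation, and 45 probes were named through the study's probe tables. The values of 1 gene called lower are not reported here. A list counts the brightest probe of each gene. Genes named are the 15 lower and 15 higher with the largest differences, Crx, most genes the study names and called genes near Crx. Called list members, or the brightest of lists without calls, were named too. Other named genes were chosen after their values were seen. The members and lists were chosen with earlier results of these data known. Scripts were tested on simulated data. Other scalings, floors, filters, tests and arrays left out were tried.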

Additional observations from a re-analysis of the deposited data

Results flagged for a closer look

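At 2 of the probes called between the mutants, the mutants were called in opposite directions against WT. Calls in opposite directions make a call between the mutants likely, so that call adds no support. Mzb1, known as an endoplasmic reticulum protein of B cells, stood at 8.20, 8.01 and 8.07 in E168d2neo/d2neo, 7.21, 7.04 and 6.86 in WT and 6.06, 6.05 and 5.55 in Crx-/-. It was 1.06 above WT in E168d2neo/d2neo and -1.15 from WT in Crx-/-, and the mutants differed by 2.21 (limma, adjusted p = 0.00187). A probe without a gene symbol was 1.26 above WT in E168d2neo/d2neo and -1.04 from WT in Crx-/-, a difference of 2.30 (adjusted p = 0.00285). Both comparisons with WT share the WT arrays.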

How the results depend on the processing

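Of 48 probes of named genes followed through 25 alternatives, 0 turned to a call in the other direction, though most called probes lost their call in some. Some uncalled differences changed sign, as for Nrl (-0.02 to 0.50) and Gnat2 (-0.14 to 0.07). The counts of probes lower and higher (77 and 52) moved to 9 and 3 with the 6 arrays normalized and fitted on their own, 6 and 0 with only the 6 arrays fitted, 18 and 10 by SAM, 50 and 31 with a floor of 64, 48 and 29 without the detection filter, and 169 and 244 with array weights. Scaled to 1 mean per array, 79 probes were higher, and with both lens-rich arrays left out, an alternative chosen after seeing the data, 93 were. Leaving out 1 array at a time gave 35 to 100 lower and 18 to 147 higher. The cause was not tested, beyond the fewer arrays in the fit of 6. Same-numbered arrays of the 2 mutants share only a number: their deviations correlated at 0.0524, 0.0548 and 0.104, and with the replicate block 63 probes were lower and 38 higher. Probes near the floor have only a bound, which limits what 3 dim arrays can show.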

Other observations

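On chromosome 12, 23 genes that start between 27 and 33 Mb were measured, and 3 of them, Trappc12, Myt1l and Prkar2b, had a probe called higher in E168d2neo/d2neo. Over all 12154 genes, 38 had a probe called higher. At the brightest probe of each gene 2 of the 23 were called higher, against 28 of 12154 genes (0.23%), and Myt1l gave -0.12. All 3 were called below WT in Crx-/- at the probe called higher, which for Myt1l is not the brightest. The brightest Myt1l probe was not called against WT in Crx-/-. Other probes of Trappc12 gave -0.24 and -0.10. This stretch was chosen after the values were seen, and 5 of the 38 genes called higher lie on chromosome 12. At the brightest probe, 4 of 403 genes measured on chromosome 12 were called higher, and 3 of 437 on chromosome 14.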
